A study of Mus musculus with 36 samples.

Results

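The comparison described here is that of hepatocytes given an adenoviral vector for human glucokinase regulatory protein in its leucine form (GKRP-446L, hL) on top of glucokinase (GK) overexpression against hepatocytes with GK overexpression alone. It was set by the sample labels and took 9 of the 36 cultures in the series: the 3 cultures labelled hL with GK, 1 from each of 3 mice, and the 6 cultures labelled control with GK, 2 from each of the same mice. The 2 GK cultures of a mouse were summed, so that each group had n = 3 mice, and the cultures were paired by mouse, since cultures of a mouse came from the same hepatocyte preparation. Other conditions used for comparison were untreated hepatocytes (no vector, 6 cultures), hL without GK overexpression (3 cultures), and GK with human GKRP-446P (hP), mouse GKRP-446P (mP) or mouse GKRP-446L (mL) (3 cultures each). All hepatocytes were from female mice aged 14 weeks of a line that carries GKRP-446L. In the labels the genotype of mouse 3 is Gckr-446P/L, and that of mice 1 and 2 is Gckr-446L. Vectors were added after the cells had attached, culture was for 24 h at 5 mM glucose with 10 nM insulin and 10 nM dexamethasone, and RNA was collected after a further 4 h at 25 mM glucose, which all groups shared. No vector without an insert was used, so the GK + hL cultures received 2 vectors and the GK cultures 1, and the effects of GKRP and of a further vector cannot be told apart.

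GK phosphorylates glucose in the hepatocyte and sets the rate at which glucose enters glycolysis and glycogen synthesis. GKRP binds GK and holds it in the nucleus at low glucose, and high glucose or fructose 1-phosphate releases it. Glucose metabolites downstream of GK activate the transcription factor ChREBP (encoded by Mlxipl), which with its partner Mlx binds the carbohydrate response element of genes for glycolysis, fructose metabolism and lipogenesis.

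The promoters of 4 genes that moved in this comparison are shown because they carry letters related to known regulators of the groups of genes described below. They are RefSeq windows of GRCm38.p6, from 250 bases before to 50 bases after the gene start, printed on the strand of the gene. Pklr encodes liver pyruvate kinase and Txnip an arrestin-like protein that restrains glucose uptake, and both were lowered. Mcm3 and Mcm5 encode subunits of the replicative helicase and were raised. In Pklr and Txnip the capitals mark matches, on either strand, to CACGNGNNNNNCNCG, a relaxed form of the carbohydrate response element in which N is any base. In Mcm3 and Mcm5 they mark matches on either strand to TTTCCCGC, TTTGGCGC, TTTCGCGC or TTTGCCGC, the 8-base forms of the E2F site, the site of the factors that switch on genes of DNA replication. Matches overlap each other in Pklr and Mcm5, and no window shown holds both motifs.
Pklr (chr3:89136373-89136672, forward strand): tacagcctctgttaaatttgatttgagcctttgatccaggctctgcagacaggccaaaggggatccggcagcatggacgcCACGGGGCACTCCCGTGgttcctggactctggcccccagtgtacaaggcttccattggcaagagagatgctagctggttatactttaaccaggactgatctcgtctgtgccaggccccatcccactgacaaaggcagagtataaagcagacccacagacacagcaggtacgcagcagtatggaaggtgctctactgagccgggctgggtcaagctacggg
Txnip (chr3:96557707-96558006, forward strand): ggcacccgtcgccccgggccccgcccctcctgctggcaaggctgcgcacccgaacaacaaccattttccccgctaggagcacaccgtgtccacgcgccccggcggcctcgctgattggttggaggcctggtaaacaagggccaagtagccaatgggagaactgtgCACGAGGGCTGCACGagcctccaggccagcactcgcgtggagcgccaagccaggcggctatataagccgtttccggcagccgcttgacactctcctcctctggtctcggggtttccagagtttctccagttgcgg
Mcm3 (chr1:20820263-20820562, reverse strand): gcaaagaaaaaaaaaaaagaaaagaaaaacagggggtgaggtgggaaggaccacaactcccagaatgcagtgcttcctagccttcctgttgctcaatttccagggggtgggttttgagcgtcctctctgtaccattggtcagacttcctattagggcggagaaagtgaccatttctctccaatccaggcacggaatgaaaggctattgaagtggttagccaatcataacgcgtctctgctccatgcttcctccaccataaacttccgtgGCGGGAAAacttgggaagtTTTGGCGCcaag
Mcm5 (chr8:75109259-75109558, forward strand): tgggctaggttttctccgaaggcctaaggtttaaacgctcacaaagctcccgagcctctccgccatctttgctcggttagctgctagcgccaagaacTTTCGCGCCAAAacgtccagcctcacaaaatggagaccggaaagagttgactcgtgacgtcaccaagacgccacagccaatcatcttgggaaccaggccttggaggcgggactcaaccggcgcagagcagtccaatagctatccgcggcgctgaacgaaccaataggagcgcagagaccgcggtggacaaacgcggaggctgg
Of the 12177 genes tested, 8969 had a promoter in the RefSeq table. The carbohydrate response element letters were in the promoters of 226 of these genes (2.52%), against 4 of the 88 lowered genes with a promoter (4.55%) and 3 of the 155 raised genes (1.94%). The E2F letters were in 436 of all promoters (4.86%), in 41 of those of raised genes (26.5%) and in 2 of those of lowered genes (2.27%). These shares are descriptions and were not tested. The Klf10 and Mcm4 promoters were not used here.

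Libraries of the GK + hL cultures held 4569187 to 5393395 gene reads and those of the GK cultures 4271540 to 10046158. Levels are given as CPM, in which the reads of a gene are divided by the TMM-scaled library total, in the order mouse 1, mouse 2 and mouse 3. The reads of human GCKR cannot be counted on mouse transcripts, so the hL vector itself was not measured. Mouse Gckr (chr5:31454787-31484658 of GRCm39) was 54.4, 69.5 and 845 CPM with GK and 46.2, 69.3 and 70.1 CPM with GK + hL (log2 fold change -2.04 ± 0.59 (SE), adjusted p = 0.064 by edgeR), and without mouse 3 its log2 fold change was -0.13. The high value of mouse 3 came from 1 of its 2 GK cultures, with 1462 CPM against 51.8 to 98.0 CPM in the 5 other GK cultures and 8934 to 20186 CPM in the 6 cultures given GK and a mouse GKRP vector. Whether it received some of a mouse GKRP vector was not tested, and Mcm4 was also highest in it among the GK cultures (22.3 CPM, the next 14.3 CPM). Results are also given without that culture where this changed a call. Markers of other liver cells did not pass the test in any of 5 lists (0 of 31 tested genes). In bulk RNA, fewer cells of a type and less RNA per cell cannot be told apart. The hepatocyte genes Alb and Apoa1 were 92202 ± 21675 and 3951 ± 1471 CPM (SD, n = 3) with GK and 95608 ± 18490.1 and 4369 ± 1852 CPM with GK + hL. The summed level of 12 macrophage genes was 310 to 363 CPM with GK and 312 to 340.0 CPM with GK + hL, that of 10 endothelial genes 86.6 to 137 and 94.5 to 139 CPM, and that of 6 lymphocyte genes 1.38 to 2.90 and 0.815 to 3.58 CPM, with Cd3e and Nkg7 at 0 in both groups. The summed level of 10 stellate and fibroblast genes was 43.1 to 141 CPM with GK and 35.1 to 161 CPM with GK + hL, and that of 6 cholangiocyte genes 24.8 to 191 and 22.6 to 175 CPM.

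Of 12177 genes tested, 198 (1.63%) were raised and 111 (0.912%) were lowered by hL on top of GK, 2.54% in all. A gene was called raised or lowered at an adjusted p under 0.05 (edgeR quasi-likelihood F test with the mouse as a block, Benjamini-Hochberg over all genes) with a fold of 1.3 or more, or of 0.7 or less. The lowered genes included glucose-regulated genes (Txnip, G6pc, Rgs16, Slc2a2, Klf10, Pklr) and the raised genes included genes of DNA replication (Uhrf1, Chek1, Mcm5, Ccne2, Chaf1b, Mcm4). The direction was the same in 3 of 3 mice for 197 of the raised and all 111 of the lowered genes, and the groups did not overlap for 156 and 82 of them, compared with 1406 of all tested genes (11.5%). The calls were made on these same paired values, so these counts are not independent support. The change was at least 2-fold for 66 raised and 31 lowered genes. The median log2 fold change of all genes was 0.01. The calls rested on pairing by mouse: without the mouse in the model 57 genes were raised and 16 lowered, and with a transcript length offset 12 and 5, with Rgs16, Slc2a2 and Gprin3 among the lowered. When all cultures without GK overexpression, untreated or with a GKRP vector, entered the edgeR fit as a single group (6 groups in all), 0 genes were raised and 38 lowered, with 784 higher and 816 lower at an unadjusted p under 0.05. That single group joins untreated and hL cultures, between which the 198 raised genes had a median log2 difference of 0.77. Without mouse 1, mouse 2 or mouse 3 the raised genes numbered 112, 83 and 47 and the lowered genes 81, 36 and 22, whereas without the GK culture with more Gckr they numbered 196 and 119.

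Genes that the study groups as responsive to GK and GKRP fell together. Of these 17 genes, 14 were lowered and 0 raised, all 17 had a log2 fold change below 0, and the median was -1.45. The study chose these genes on the same samples, so the count is not independent evidence of direction. In an overlapping list of ChREBP and its targets, 11 of 20 were lowered and all 20 were below 0 (median -1.05). Without the mouse in the model 5 and 3 members of these lists were lowered (Pklr, Tkfc, Klf10, Slc25a44 and Rnf144b in the first and the first 3 of these in the second), and with the length offset 4 and 4 were lowered (medians -1.49 and -1.19), Pklr, Txnip, Klf10, Tkfc, G6pc and Angptl8 no longer among them. With the 6 groups 9 and 8 were lowered. Without mouse 1, mouse 2 or mouse 3 the first list had 13, 5 and 7 lowered genes and the second 12, 6 and 8.

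Pklr had the smallest p of these genes. It was 178, 121 and 229 CPM with GK and 70.04, 48.9 and 71.6 CPM with GK + hL, with all 3 GK + hL samples below all 3 GK samples (log2 fold change -1.45 ± 0.15 (SE), adjusted p = 1.8e-06). Txnip, whose promoter is printed above with that of Pklr, was 97.9, 274 and 344 CPM with GK and 30.04, 58.3 and 66.1 CPM with GK + hL. Its groups did not overlap, although mouse 1 was lower than the other mice in both (log2 fold change -2.11 ± 0.29 (SE), adjusted p = 0.000103). Klf10, a glucose-induced transcriptional repressor, was 51.5, 70.1 and 104 CPM with GK and 17.1, 23.2 and 26.1 CPM with GK + hL (log2 fold change -1.73 ± 0.22 (SE), adjusted p = 4.74e-05). The 3 samples with hL were again the 3 lowest. Arrdc4, a relative of Txnip, was 10.7, 15.6 and 25.2 CPM with GK and 7.32, 7.13 and 7.58 CPM with GK + hL and missed the threshold (log2 fold change -1.17 ± 0.33 (SE), adjusted p = 0.0515).

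Genes at the entry and exit of glucose were among the most lowered. Slc2a2, the main hepatic glucose transporter (GLUT2), was 61.7, 91.6 and 89.2 CPM with GK and 11.5, 40.3 and 29.7 CPM with GK + hL (log2 fold change -1.76 ± 0.27 (SE), adjusted p = 0.000372). G6pc, the catalytic subunit of glucose-6-phosphatase that releases glucose, was 3.45, 24.5 and 16.6 CPM with GK and 1.88, 4.89 and 2.32 CPM with GK + hL (log2 fold change -2.07 ± 0.48 (SE), adjusted p = 0.0173). G6pc was low in mouse 1 already with GK, so the groups overlapped, but each GK + hL sample was below the GK sample of its mouse.

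In glycolysis and fructose metabolism 3 of 25 genes were lowered and 0 raised. Pklr and Tkfc were among them. Tkfc, which phosphorylates the glyceraldehyde made from fructose, was 363, 417 and 570.2 CPM with GK and 194, 231 and 189 CPM with GK + hL (log2 fold change -1.14 ± 0.14 (SE), adjusted p = 3.29e-05). Its groups did not overlap. Khk, the kinase that starts fructose metabolism, had a log2 fold change of -0.31 ± 0.15 (adjusted p = 0.325), and the other 21 genes of the list also did not pass. Pfkfb3, an enzyme that sets the level of the glycolytic activator fructose 2,6-bisphosphate, was 129, 133 and 149 CPM with GK and 71.2, 101 and 112 CPM with GK + hL (log2 fold change -0.57 ± 0.16 (SE), adjusted p = 0.06), and was called lowered without the GK culture with more Gckr (log2 fold change -0.61, adjusted p = 0.0439).

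The other lowered genes of the study's list differ in function. Rgs16, a regulator of G protein signalling, was 26.04, 58.6 and 54.5 CPM with GK and 11.6, 19.6 and 8.63 CPM with GK + hL (log2 fold change -1.84 ± 0.36 (SE), adjusted p = 0.00405). Angptl8, a secreted regulator of lipoprotein lipase, was 36.8, 44.3 and 51.8 CPM with GK and 14.8, 18.7 and 11.8 CPM with GK + hL (log2 fold change -1.56 ± 0.37 (SE), adjusted p = 0.0221). In both genes every GK + hL sample was below every GK sample. The mitochondrial carriers Slc25a47 and Slc25a44, of which the latter carries branched-chain amino acids, had log2 fold changes of -1.23 ± 0.25 and -0.86 ± 0.12 (adjusted p = 0.00622 and 9.02e-05), and were the only called genes among 21 Slc25 carriers. The LIM homeobox gene Lhx6 (-1.79), the cation channel gene Hcn3 (-1.70) and the ubiquitin ligase gene Rnf144b (-0.73) were also lowered. Slc16a1, the lactate and pyruvate transporter, had adjusted p = 0.0409 but a log2 fold change of only -0.26 ± 0.07, within the fold limit, and the anion transporter gene Slc17a4 had -0.85 ± 0.40 (adjusted p = 0.319) with 1 of 3 mice higher.

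**Figure D1:**
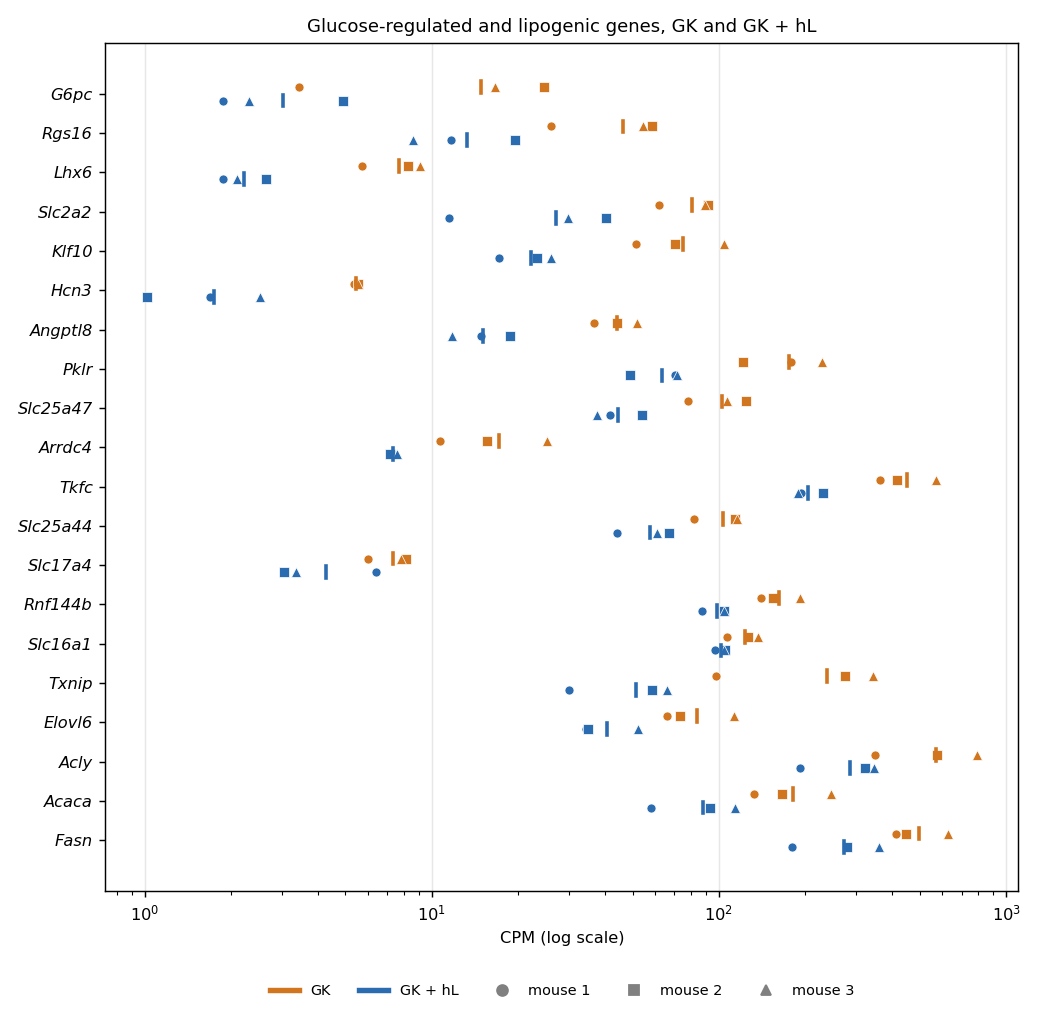
Level of each gene in CPM (log scale) in the 3 mice with GK (orange) and GK + hL (blue); symbols are mice and vertical bars are means. The first 15 genes are from the study's list, ordered by fold change, and the last 5 are Txnip and lipogenic genes; only G6pc and Slc17a4 have overlapping groups.

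Lipogenic genes fell in part. Of 25 genes of de novo lipogenesis and triglyceride metabolism 6 were lowered and 0 raised, with a list median of -0.19. Without the mouse in the model 1 was lowered, without mouse 2 or mouse 3 there were 3 and 1, and with the length offset 0. Acly, which makes cytosolic acetyl-CoA from citrate, was 349.6, 572 and 790.4 CPM with GK and 191, 322 and 345 CPM with GK + hL (log2 fold change -0.98 ± 0.15 (SE), adjusted p = 0.000372). Acaca, acetyl-CoA carboxylase, was 133, 165 and 246 CPM with GK and 58.02, 93.3 and 113 CPM with GK + hL (log2 fold change -1.04 ± 0.19 (SE), adjusted p = 0.00254). The fatty acid elongase Elovl6 had a log2 fold change of -1.04 ± 0.12 (adjusted p = 9.7e-06). Fasn, fatty acid synthase, was 412, 447 and 629.6 CPM with GK and 179, 279 and 360.2 CPM with GK + hL (log2 fold change -0.87 ± 0.23 (SE), adjusted p = 0.0381). The 3 GK + hL samples of each of these genes lay below the 3 GK samples, but with the transcript length offset the log2 fold change of Fasn was -0.08. Angptl8 and Angptl4 (-0.68) were the other 2 genes of this list that fell. Gpd1, which links glycolysis to glycerol 3-phosphate, was lowered (-0.90), and Mlxipl itself had -0.53 ± 0.16 (adjusted p = 0.0686).

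Among the 15 most lowered genes outside these lists were the transcripts Gm2446, ENSMUSG00000121507 and Gm16170 and the genes Abcc12 and Gprin3. Gm2446 had 0 reads in all 3 GK + hL samples, which allows up to 0.594 CPM (3 reads in a library), and 1.91, 1.02 and 3.20 CPM with GK, so it was at least 3.39-fold lower. It was 4.37 ± 1.71 CPM with hL at endogenous GK, and 5.36, 0 and 3.98 CPM with GK + mP. Gm2446 is annotated as an unprocessed pseudogene, and whether its reads were assigned to a similar gene was not tested. Zfp189 was the only lowered gene of 14 immediate early genes, at 12.4, 13.3 and 15.1 CPM with GK and 6.20, 7.33 and 7.16 CPM with GK + hL (log2 fold change -0.98 ± 0.21 (SE), adjusted p = 0.0107). Over all genes tested 0.912% were lowered. In this list 1 gene was lowered without the mouse in the model or with the 6 groups. With the length offset, or without mouse 1, mouse 2 or mouse 3, 0 were lowered.

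Genes of S phase and DNA replication rose together. Of 53 tested, 37 were raised and 0 lowered, 52 had a log2 fold change above 0, and the median was 1.00. Without the mouse in the model 20 were raised, with Mcm2, Mcm3, Mcm4, Mcm5, Chek1, Ccne2 and Chaf1b among them, with the length offset 8 were raised (51 of the 53 above 0, median 1.38), and with the 6 groups 0 were raised (52 above 0, median 1.00, adjusted p = 0.108 for Mcm4 and 0.106 for Mcm5). Without mouse 1, mouse 2 or mouse 3 the raised genes of the list numbered 25, 26 and 18.

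All 6 subunits of the MCM helicase, which unwinds DNA at the fork, were raised. Mcm4 was 12.6, 12.1 and 18.3 CPM with GK and 60.5, 50.7 and 68.2 CPM with GK + hL (log2 fold change 2.06 ± 0.12 (SE), adjusted p = 5.39e-10). Mcm5 was 9.80, 4.65 and 9.51 CPM with GK and 44.5, 27.7 and 37.1 CPM with GK + hL (log2 fold change 2.22 ± 0.17 (SE), adjusted p = 2.27e-08), and Mcm3 was 23.2, 21.5 and 25.8 CPM with GK and 79.8, 61.7 and 68.8 CPM with GK + hL (log2 fold change 1.57 ± 0.09 (SE), adjusted p = 5.39e-10). In each the 3 GK + hL samples were above the 3 GK samples, mouse 2 being the lowest with GK + hL. Mcm2 (1.63), Mcm6 (1.26) and Mcm7 (0.81) followed. Of 14 genes of the helicase and origin licensing 11 were raised, the others of them being Orc1, Orc6, Cdt1, Cdc45 and Gins2, while Cdc6, Gins1 and Mcm10 did not pass.

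Regulators of entry into S phase were raised for 5 of 7 genes. Ccne1, cyclin E1, was 2.90, 2.62 and 4.23 CPM with GK and 18.8, 7.74 and 16.2 CPM with GK + hL (log2 fold change 2.03 ± 0.23 (SE), adjusted p = 7.38e-06). Ccne2, cyclin E2, was 2.63, 5.01 and 4.39 CPM with GK and 15.96, 15.5 and 25.7 CPM with GK + hL (log2 fold change 2.18 ± 0.30 (SE), adjusted p = 8.37e-05). E2f1, an activating E2F factor, had a log2 fold change of 1.83 ± 0.22 and E2f8, a repressing one, of 1.97 ± 0.37, and the phosphatase gene Cdc25a was raised (1.00). E2f2 and E2f7 did not pass.

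Genes of chromatin assembly and DNA methylation at the fork were raised for 5 of 5. Chaf1b, a subunit of the histone chaperone CAF-1, was 5.08, 9.08 and 9.03 CPM with GK and 36.1, 34.02 and 29.5 CPM with GK + hL (log2 fold change 2.09 ± 0.18 (SE), adjusted p = 2.56e-07). Uhrf1, which directs the methyltransferase Dnmt1 to replicated DNA, was 4.45, 1.09 and 3.28 CPM with GK and 18.2, 13.4 and 24.2 CPM with GK + hL (log2 fold change 2.77 ± 0.33 (SE), adjusted p = 1.35e-05). Both genes had no overlap between groups. Dnmt1 was raised by 0.66, Chaf1a by 1.28 and the histone mRNA binding protein gene Slbp by 0.96, all on the log2 scale.

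Of 6 checkpoint and recombination genes 4 were raised, namely Chek1, Rad51c, Brca2 and Tipin. Chek1, the kinase of the replication checkpoint, was 0.907, 1.96 and 1.76 CPM with GK and 10.5, 8.15 and 9.26 CPM with GK + hL (log2 fold change 2.55 ± 0.32 (SE), adjusted p = 2.69e-05). Rad51c had the highest fold change of the 37 but low levels, from 0, 0.218 and 0.160 CPM to 0.188, 1.43 and 1.47 CPM. Of 15 genes of the fork and strand synthesis 8 were raised, including Pcna (0.95), Lig1 (1.31), Rpa2 (1.33) and Fen1 (0.62). Of 6 genes of deoxynucleotide supply 4 were raised, including Dut (1.36), Rrm1 (1.21) and Tyms (0.97), whereas Rrm2 (0.12 ± 0.20) and Tk1 (0.26 ± 0.31) were not.

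Genes of the later cycle were mostly too low to test. Of 18 genes of G2/M and mitosis 5 were tested and 0 passed. Cdk1 was 1.09, 0.727 and 0.799 CPM with GK and 5.07, 0.611 and 1.68 CPM with GK + hL and Mki67, the proliferation marker, was 2.90, 0.509 and 0.879 CPM with GK and 0.939, 0.204 and 0 CPM with GK + hL (adjusted p = 0.142 and 0.144). Cdk1 was highest in mouse 1 and below the paired GK sample in mouse 2, and Mki67 was lower with hL in 3 of 3 mice.

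**Figure D2:**
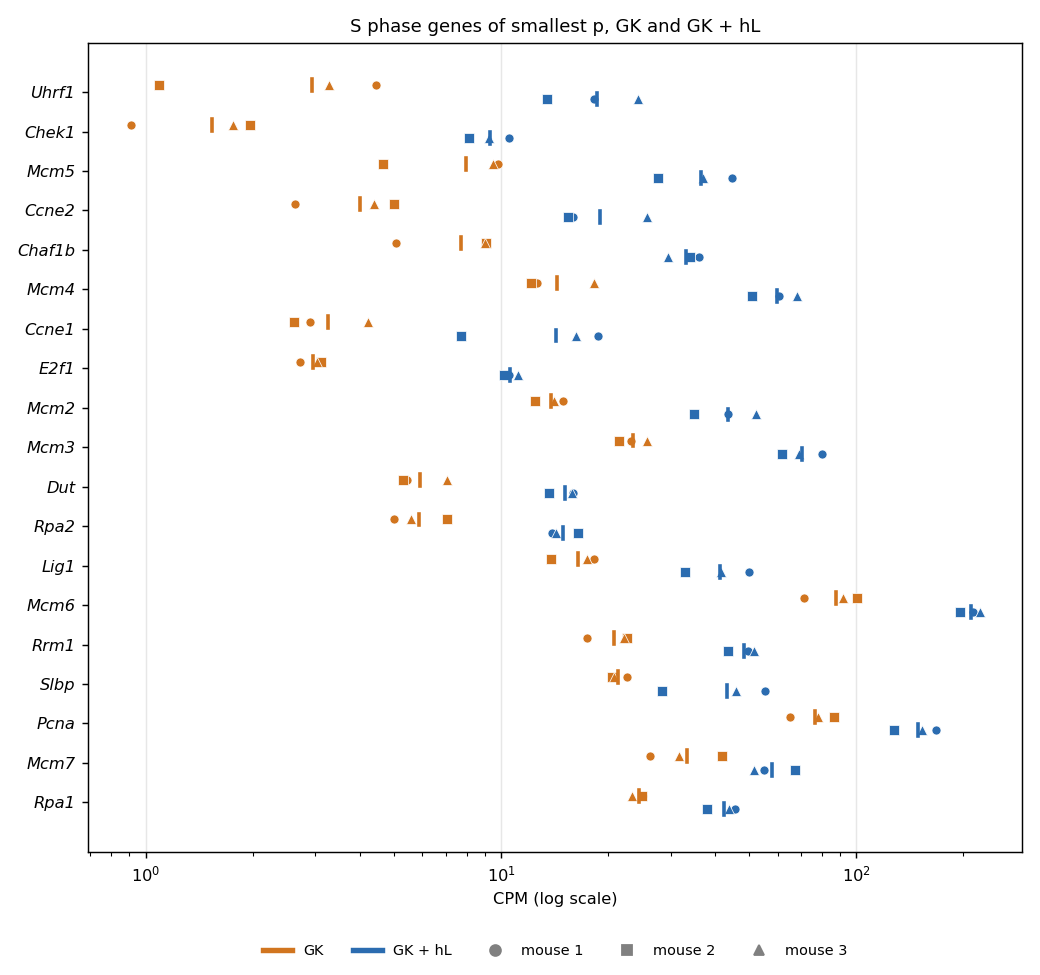
Level in CPM (log scale) of 19 of the 20 S phase genes of smallest p in the 3 mice with GK (orange) and GK + hL (blue), ordered by fold change; symbols are mice and bars are means. The GK + hL samples lie to the right of the GK samples, with log2 fold changes up to 2.77 (Uhrf1).

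A smaller group of raised genes belonged to the stress response of ATF4 and the endoplasmic reticulum, of which 5 of 21 were raised and 0 lowered (median 0.25). Ddit3, which encodes the stress factor CHOP, was 3.72, 4.72 and 4.55 CPM with GK and 8.83, 8.96 and 11.4 CPM with GK + hL (log2 fold change 1.16 ± 0.18 (SE), adjusted p = 0.000559). Chac1, a glutathione-degrading target of this pathway, was 8.53, 5.52 and 11.1 CPM with GK and 20.5, 15.7 and 24.2 CPM with GK + hL (log2 fold change 1.29 ± 0.32 (SE), adjusted p = 0.0241). The groups did not overlap for either. Atf3 (0.39), Herpud1 (0.49) and Sesn2 (0.47) were the other 3, and Sesn2 was also the only raised gene of 20 p53 targets. Without the GK culture with more Gckr, Sesn2 and Atf3 were no longer called (log2 fold change 0.47 and 0.38). The endoplasmic reticulum chaperone gene Hspa5 had 0.05 ± 0.09 (adjusted p = 0.881). Without the mouse in the model Ddit3 was the 1 gene of this list raised, and 0 were raised with the length offset, with the 6 groups or without mouse 3.

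Of 27 genes of cholesterol biosynthesis and its control 1 was raised, Insig1, which retains the SREBP complex in the endoplasmic reticulum, at 69.8, 124 and 104 CPM with GK and 107, 159 and 134 CPM with GK + hL (log2 fold change 0.44 ± 0.10 (SE), adjusted p = 0.0176). Its groups overlapped, although it was higher in 3 of 3 mice. Over all genes tested 1.63% were raised. Insig1 was also called with DESeq2, but not without the mouse in the model (adjusted p = 0.843 by edgeR) or with the length offset (adjusted p = 0.596). With the 6 groups, or without mouse 1, mouse 2 or mouse 3, 0 genes of the list were raised. The median of the list was 0.01, the same as that of all genes.

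In 8 lists no gene passed the test. These were the pentose phosphate pathway (8 tested), glycogen (11), cholesterol excretion and bile acids (15), fatty acid oxidation and ketogenesis (20), the interferon response (24), NF-kB and acute phase (23), hepatocyte identity (24) and G2/M. Pgd of the pentose phosphate pathway had -0.22 ± 0.07 (adjusted p = 0.087). Pygl, liver glycogen phosphorylase, was lower in 3 of 3 mice with -0.43 ± 0.09 (adjusted p = 0.00819), short of the fold limit. In the interferon list Cxcl10 had 0.73 ± 0.31 and Oasl1 0.30 ± 0.13 (adjusted p = 0.261 and 0.278), and in the acute phase list the chemokine gene Cxcl1 had -0.57 ± 0.17 and Hamp, which encodes the iron hormone hepcidin, 0.70 ± 0.22 (adjusted p = 0.0746 and 0.0836). In the gluconeogenesis list G6pc was the only called gene of 9.

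**Figure D3:**
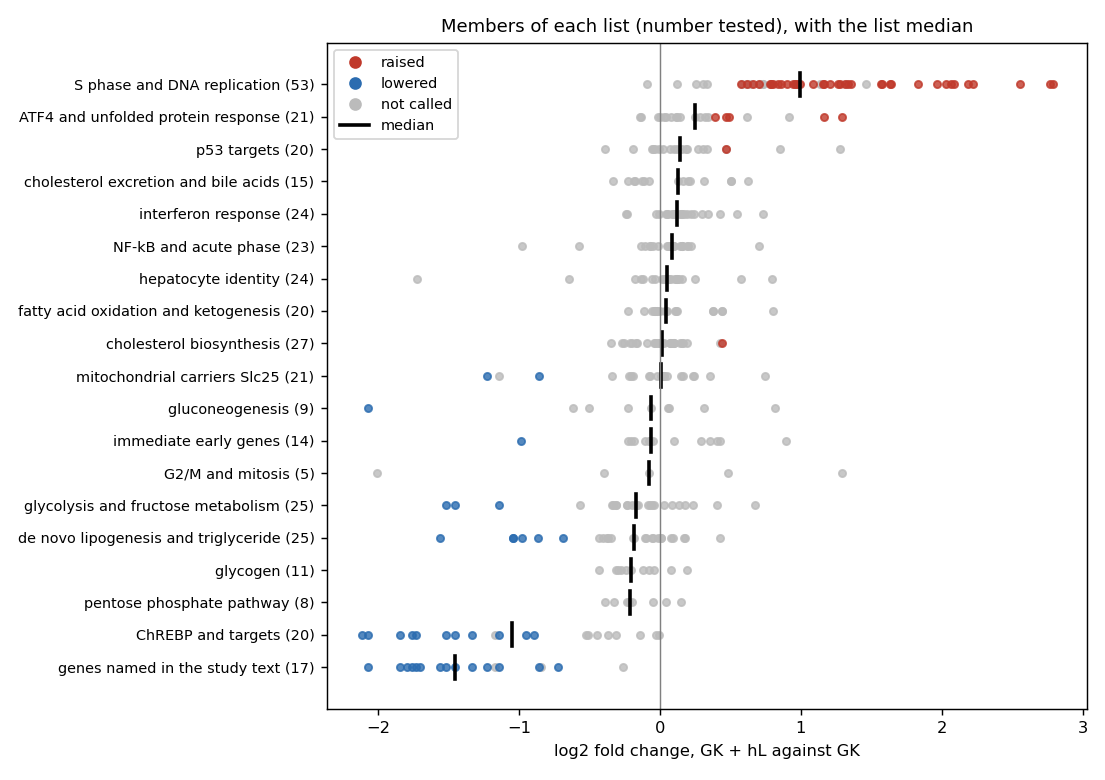
Log2 fold change of GK + hL against GK for the tested members of each of 19 lists; red points were raised, blue lowered, grey not called, and black bars are list medians. The S phase list has its median at 1.00, the study's list at -1.45 and the ChREBP list at -1.05, and the other medians lie between -0.21 and 0.25.

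The same vector was also given at endogenous GK (hL against untreated), which asks whether the response to hL depends on GK excess. These samples were not in the contrast above but entered the same edgeR fit, including its filter, scaling and spread. For the 198 raised genes the log2 difference of hL minus untreated was above 0 for 195, with a median of 0.77 against 0.78 on top of GK. For the 111 lowered genes it was below 0 for 103, with a median of -0.44 against -0.79. Both sets were chosen by their change on top of GK, which by itself favours larger values there. The gap between these medians therefore cannot show whether the response depends on GK excess. GK alone against untreated, which shares the GK samples, had a median log2 difference of -0.03 for the raised genes and of 0.23 for the lowered genes. The 53 S phase genes had a median log2 difference of 1.05 for hL at endogenous GK and 0.08 for GK alone. Mcm5, for example, was 6.81 ± 3.19 CPM (SD, n = 3) in untreated hepatocytes, 36.4 ± 6.89 with hL, 7.99 ± 2.89 with GK and 36.4 ± 8.42 with GK + hL. The study's 17 genes had a median of -0.39 with hL at endogenous GK, 1.33 with GK alone and 0.12 with GK + hL, each relative to untreated hepatocytes. The study chose these genes on the same samples as raised by GK and lowered by GKRP. The medians with GK alone and with GK + hL are therefore not independent evidence. Tkfc was 191 ± 11.4 CPM in untreated hepatocytes, 156 ± 10.5 with hL, 449.96 ± 108 with GK and 204 ± 22.9 with GK + hL.

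The difference between the responses was tested directly as the change by hL with GK minus that at endogenous GK. edgeR called 0 genes in either direction (0.00% of 12177), with 342 above and 367 below 0 at an unadjusted p under 0.05, a smallest adjusted p of 0.0811, and 27 and 11 genes called by DESeq2. All 17 of the study's genes had a difference below 0 (median -0.94), Pklr having -0.85 ± 0.21 (adjusted p = 0.381) and Tkfc -0.85 ± 0.20 (adjusted p = 0.372). These differences did not pass the test, and they use the same GK + hL and GK samples as the fold changes above. The study chose the 17 genes for their changes with GK and GKRP in these samples, which by itself favours differences below 0. In the S phase list the median difference was -0.02.

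**Figure D4:**
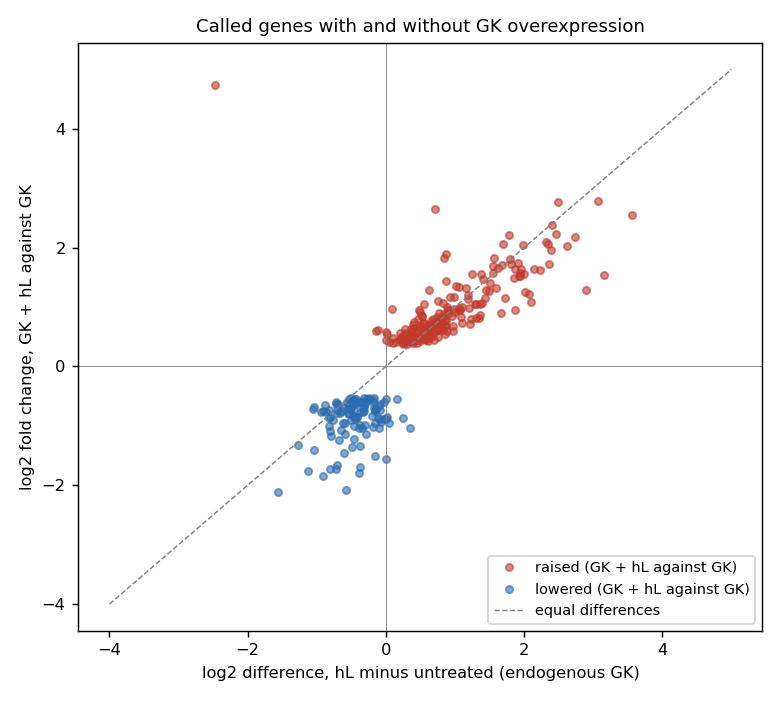
Log2 fold change of GK + hL against GK (vertical) and log2 difference of hL minus untreated at endogenous GK (horizontal) for the raised (red) and lowered (blue) genes; the dashed line marks equal differences, and Gm2446 is left out. Raised genes lie around the line (medians 0.78 and 0.77), lowered genes mostly below it (-0.79 and -0.44), and the raised point at upper left is Ugt1a7c. The genes were chosen by their vertical values, which by itself favours larger changes on that axis.

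Direct tests against the other GKRP vectors with GK ask whether human GKRP-446L differs from the 446P form and from mouse GKRP. Against GK + hP 15 genes (0.123% of 12177) were higher with GK + hL and 1 (0.00821%) was lower. Each of these 16 differed the same way within all 3 mice, which the paired test itself favours. The groups did not overlap for 4 of the 15 and for the lowered gene, compared with 834 of all genes (6.85%). Depp1, Adm, Rgs2, Ddit4 and Vegfa had the largest differences. Adm, which encodes the vasodilator adrenomedullin, was 13.8, 41.7 and 22.1 CPM with GK + hP and 32.3, 76.2 and 61.5 CPM with GK + hL (log2 difference 1.19 ± 0.22, adjusted p = 0.0249). Vegfa, the endothelial growth factor, was 73.9, 238 and 121 and 145, 355 and 249 CPM (log2 difference 0.87 ± 0.14, adjusted p = 0.00946). Mouse 1 was the lowest and mouse 2 the highest in both groups. Ddit4, an inhibitor of mTORC1 signalling, was 15.3, 25.7 and 17.9 and 32.3, 45.4 and 36.4 CPM, with no overlap (log2 difference 0.98 ± 0.16, adjusted p = 0.0122). Depp1 had 1.44 ± 0.26 and Rgs2 1.07 ± 0.18 (adjusted p = 0.024 and 0.0122). The other 10 were Pfkfb3, Egln3, Pnrc1, Hmox1, Tiparp, Bag2, Bhlhe40, Rnf217, Dusp1 and Ero1a, with log2 differences from 0.46 to 0.86, and the lowered gene was the non-coding 2610005L07Rik (-1.03 ± 0.19).

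Against GK + mP 14 genes (0.115%) were higher with GK + hL, all in 3 of 3 mice, which the paired test again favours. The number was 0 without mouse 1, 1 without mouse 2, 0 without mouse 3, 0 without the mouse in the model and 0 with the length offset. The 5 largest differences were Adm (1.22 ± 0.22), Pfkfb3 (0.91 ± 0.17), Vegfa (0.77 ± 0.14), Igfbp1 (0.73 ± 0.13) and Tiparp (0.72 ± 0.10). Igfbp1 encodes a hepatic binding protein of insulin-like growth factors. The 1 lower gene was Gckr, which the mouse vectors carry. Against GK + mL 0 genes were higher by edgeR (407 at an unadjusted p under 0.05; 13 by DESeq2), and Gckr was again the 1 lower gene. The comparisons share the GK + hL samples, so the values of a gene in them are not independent. Against GK alone the 15 genes higher than with hP had a median log2 fold change of 0.10, and Adm was 35.5, 56.8 and 59.4 CPM and Vegfa 132, 319 and 214 CPM with GK. Only Ddit4, Hmox1 and Pnrc1 of the 15 were also raised against GK, and the number of genes higher than with hP was 0 without mouse 1, 3 without mouse 2, 0 without mouse 3, 0 without the mouse in the model and 0 with the length offset. Without the GK culture with more Gckr, Ddit4 was no longer called against GK (log2 fold change 0.53, adjusted p = 0.126).

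In the study's list 0 of 17 genes passed against GK + hP, GK + mP or GK + mL. The value with GK + hL was above that with GK + hP for 17 of 17 (median 0.43), above that with GK + mP for 16 of 17 (median 0.44) and below that with GK + mL for 17 of 17 (median -0.70). Relative to GK alone, which these values share, the list medians were -1.45 with hL, -1.85 with hP, -1.84 with mP and -0.62 with mL. The amounts of GKRP were not matched or not known. Mouse Gckr was 10944, 9010 and 14485 CPM with GK + mL and 14778, 14382 and 20146 CPM with GK + mP. Human GCKR was not counted, so the form of GKRP and its amount cannot be told apart. Txnip was 51.5 ± 18.96 CPM (SD, n = 3) with GK + hL, 34.1 ± 17.6 with GK + hP, 29.4 ± 14.2 with GK + mP and 132 ± 70.99 with GK + mL. Rgs16 was 13.3 ± 5.64 CPM with GK + hL, 5.19 ± 2.06 with GK + hP, 5.76 ± 2.55 with GK + mP and 29.7 ± 13.4 with GK + mL, and its log2 difference from hP was 1.35 ± 0.40 (adjusted p = 0.392). Pklr had 0.13 ± 0.15 against hP (adjusted p = 0.871) and -0.70 ± 0.15 against mL (adjusted p = 0.211). In the S phase list 0 of 53 genes passed against any of the 3 vectors, with median differences of -0.01 from hP, -0.26 from mP and -0.05 from mL.

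**Figure D5:**
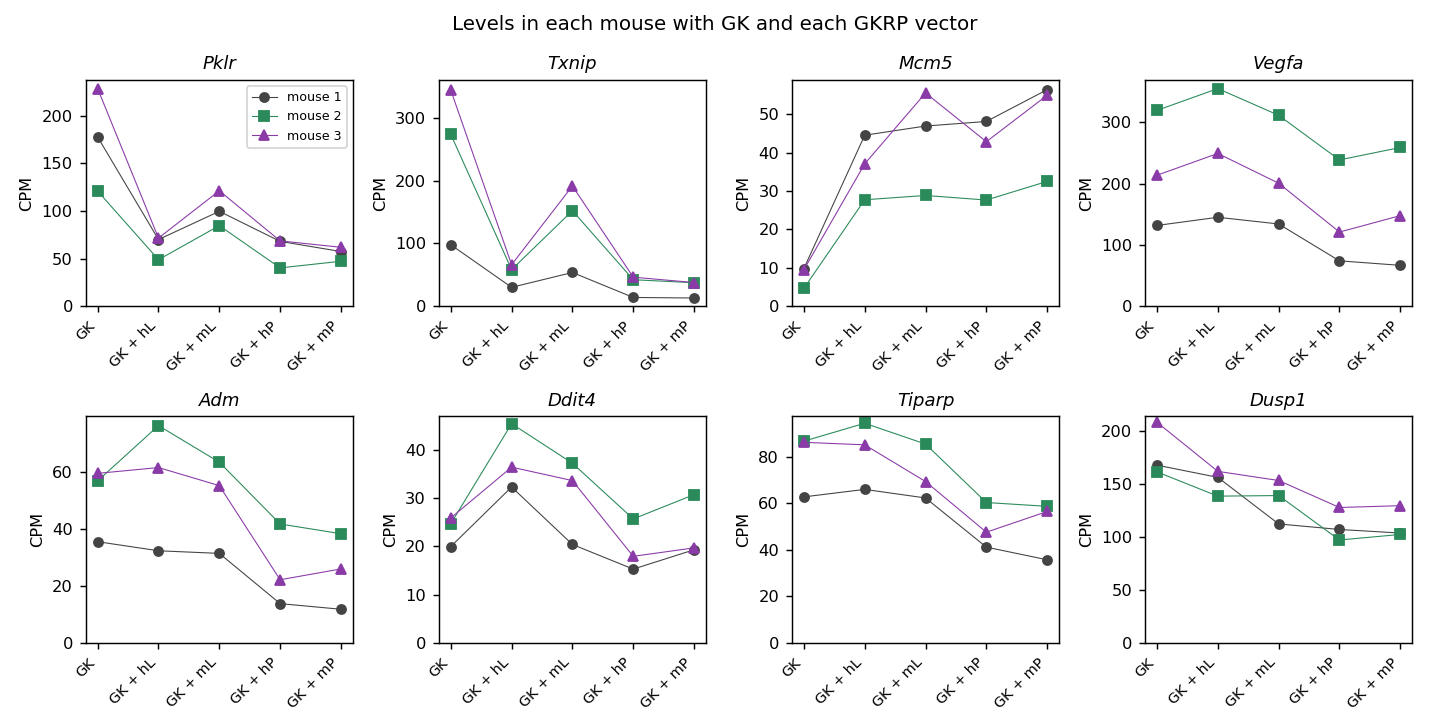
Level in CPM of 8 genes in each mouse (lines join cultures of a mouse) with GK alone and with GK and each GKRP vector. With each vector Pklr and Txnip are below and Mcm5 is above the GK sample of the same mouse in 3 of 3 mice, and Vegfa, Adm, Ddit4, Tiparp and Dusp1 are lower with hP and mP than with hL in 3 of 3 mice.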

How the data were processed

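RNA of 36 cultures was sequenced (3 mice, 10 conditions). Per the labels the authors ran Salmon 1.4.0 on mouse transcripts of GRCm39 and deposited, for each of 139225 transcripts, expected counts (not normalized) and TPM within the library. The deposited TPM were not used for tests, and replicates were not pooled by the authors. Transcripts were paired with genes through a later Gencode release of the same build, which matched 98.8% (0.392% to 0.639% of reads were left out), and the counts were summed to 52230 genes and rounded.

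The 2 cultures of a mouse with GK, and those untreated, differed by more than counting noise and were summed, giving 30 samples. Genes were filtered with filterByExpr (12177 left), scaled by TMM (factors 0.901 to 1.09) and tested with edgeR 4.0.16 in R 4.3.3 (quasi-likelihood F test, 10 conditions, mouse as a block, Benjamini-Hochberg). The SE is the log2 fold change divided by the square root of F. Cultures of a mouse came from the same preparation: deviations from group means of the GK + hL and GK samples correlated at 0.395, 0.311 and 0.357 within mice and at -0.268 to -0.0382 between mice, and the biological coefficient of variation was 0.231 with the block and 0.323 without. The deviations of a group sum to 0, so correlations above 0 within mice by themselves push those between mice below 0. Alternatives were no block, DESeq2 1.42.0, RLE or upper quartile scaling, other count filters and fold limits, a transcript length offset, other sets of samples, and each mouse left out. The test was checked on simulated data.

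The comparison, gene lists and tests were chosen with earlier results of these data known. Genes named are Gckr, Txnip, Dusp1 and Zfp189, the 15 most changed in each direction among calls that moved the same way in 3 mice, the genes of the study's list, up to 6 called members of each other list (or its 2 of smallest p), and the 5 most changed in each direct test; others were chosen after their values were seen or complete a list or a count. Some genes of these rules and lists are counted but not reported by name here. Promoters are from RefSeq (GRCm38.p6), with 37 of 53 named called genes matched by symbol. CPM are mean ± SD over mice. No source states that cultures were independent beyond the mouse. With the mouse as a block, p-values measure how far differences between conditions varied among the 3 mice. That spread was estimated over all 30 samples and 10 conditions, not from the GK + hL and GK samples alone.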

Additional observations from a re-analysis of the deposited data

Results flagged for a closer look

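In the 6 GK cultures, single cultures stood apart from the other 5 for 4 of the 83 genes named that were examined, as judged by Dixon's test on the gap to the nearest culture. For independent values it flags about 1 group in 20 by chance, a share close to that seen. The cultures were 2 from each mouse, so that rate need not hold here. The gap as a share of the range was 0.967 for Gckr, 0.745 for Mcm4, 0.730 for Ddit3 and 0.641 for H6pd. Gckr was 1462 CPM in a culture of mouse 3, and the next highest was 98.0 CPM. Mcm4 was 22.3 CPM in the same culture and the next highest was 14.3 CPM. H6pd, the glucose 6-phosphate dehydrogenase of the endoplasmic reticulum, was 545 CPM in a culture of mouse 2 and the next lowest was 657 CPM. Ddit3 was 2.72 CPM in a culture of mouse 1 and the next lowest was 4.23 CPM. The log2 fold changes with both cultures of a mouse summed were 2.06 ± 0.12 for Mcm4, -0.33 ± 0.15 for H6pd and 1.16 ± 0.18 for Ddit3, and without the culture of mouse 3 with more Gckr 2.21, -0.33 and 1.14.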

How the results depend on the processing

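With the mouse as a block 198 genes were raised and 111 lowered by hL on top of GK. Without the block the counts were 57 and 16, all of them among the 198 and 111. With a transcript length offset they were 12 and 5, with the 5 conditions of endogenous GK as 1 group (6 groups) 0 and 38, with only the 15 samples with GK 98 and 58, and with only the 6 samples of both groups 27 and 11. With no filter on low counts 114 were raised. At a fold of at least 2 or at most 0.5 there were 66 and 31, and with no fold limit 180 were lowered. Leaving out each mouse in turn gave 47 to 112 raised and 22 to 81 lowered. Some of these settings have fewer samples or stricter limits by construction. The 6 groups join untreated cultures with those given hL, which differed by a median log2 of 0.77 for the 198 raised genes. Such differences count as residual spread in that fit. Other causes were not tested. RLE or upper quartile scaling, DESeq2, a mean of at least 50 counts and the 36 cultures as samples kept both counts within 1.5 times. Of the 53 named genes called, 53 kept their call with RLE, 48 with DESeq2 (4 had no adjusted p there and Abcc12 did not pass), 17 with the 6 groups, 20 without the block, 13 with the length offset, and 39, 26 and 21 without mouse 1, 2 and 3.

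Against GK + hP, the 15 higher genes and 1 lower gene became 0 and 0 without the block, 38 and 12 with DESeq2, and 0 and 0 with the length offset, and leaving out each mouse gave 0 to 3 higher and 0 to 1 lower. Against GK + mP, the 14 higher genes became 0 without the block or with the length offset, 37 with DESeq2 and 8 with no filter, the lower genes 9 with DESeq2, and leaving out each mouse gave 0 to 1 higher and 1 to 3 lower. Against GK + mL DESeq2 called 13 higher and 23 lower, and leaving out each mouse gave 1 to 3 lower. For the difference between the responses to hL with and without GK, DESeq2 called 27 above and 11 below 0, and leaving out each mouse gave 0 to 1 below. Adm, not called against GK (log2 fold change 0.081), had -0.084 with the length offset, -0.051 without the GK culture with more Gckr, and -0.037 to 0.204 when each mouse was left out. The setting without that culture was added after seeing the data for the comparisons with the other vectors and for the difference between responses. Each group had 3 mice, or 2 when a mouse was left out, and depth limits genes of a few CPM most, such as Rad51c and Gm2446.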

Other observations

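Some called genes belong to no list above, and the 6 chaperone and cochaperone genes in this paragraph were chosen after their values were seen. They come from no list, and how many other such genes were tested was not counted. Hspa8, the constitutive HSC70, was 3862, 2209 and 2519 CPM with GK and 6504, 3309 and 4131 CPM with GK + hL (log2 fold change 0.68 ± 0.08 (SE), adjusted p = 1.26e-05 by edgeR), in 3 of 3 mice, although reads of its many processed copies could be shared with it. Hsph1, a nucleotide exchange factor of HSP70, was 101, 67.9 and 70.7 CPM with GK and 189, 100.01 and 119 CPM with GK + hL (log2 fold change 0.73 ± 0.09 (SE), adjusted p = 1.3e-05). Dnajb1 (0.61 ± 0.12), Dnaja1 (0.56 ± 0.12), Hsp90aa1 (0.48 ± 0.09) and Fkbp4 (0.56 ± 0.10) were also raised. At endogenous GK the log2 difference of hL minus untreated was 0.53 ± 0.08 for Hspa8 and 0.54 ± 0.09 for Hsph1.

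Among the 15 most raised genes, 6 were not in a list. Slfn9, which has near-identical neighbours, was 7.26, 2.33 and 3.52 CPM with GK and 28.4, 5.70 and 22.3 CPM with GK + hL (log2 fold change 2.04 ± 0.20 (SE), adjusted p = 1.07e-06). Dppa3 was 2.00, 0.0727 and 0.559 CPM with GK and 14.3, 0.815 and 1.05 CPM with GK + hL (log2 fold change 2.39 ± 0.45 (SE), adjusted p = 0.00279), most of it in mouse 1. Inhbe, which encodes the hepatokine activin E subunit, was 0.635, 0.363 and 0.240 CPM with GK and 1.13, 1.22 and 2.32 CPM with GK + hL (log2 fold change 1.89 ± 0.51 (SE), adjusted p = 0.0452), and without the GK culture with more Gckr its log2 fold change was 2.01 (adjusted p = 0.0712). Platr25 was 2.65 on the log2 scale, and 2.74 (adjusted p = 0.0547) without that culture. The non-coding D430020J02Rik (2.21) and the processed pseudogene Gm5828 (2.06), whose reads may come from its parent gene, completed them. Among the lowered, Abcc12 (-1.41) had -1.18 (adjusted p = 0.0816) without that culture. Ugt1a7c, which shares exons with the other Ugt1a genes, was 2.27, 0.363 and 0.639 CPM with GK and 20.8, 71.9 and 0.421 CPM with GK + hL and was raised without being higher in each mouse (log2 fold change 4.74 ± 1.28 (SE), adjusted p = 0.0436).

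Of genes named from lists with no call, the smallest p values were those of Tat, a glucocorticoid-induced hepatic aminotransferase, with 0.80 ± 0.24 (adjusted p = 0.0791), and Foxa1 with -0.64 ± 0.19 (adjusted p = 0.0725) in hepatocyte identity, Creb3l3 with 0.44 ± 0.19 in fatty acid oxidation and ketogenesis, Cyp7b1 with 0.50 ± 0.21 and Abcg5 with 0.50 ± 0.24 in cholesterol excretion and bile acids, and Gbe1 with -0.21 ± 0.08 in glycogen. Of these 6 genes Foxa1, Tat, Creb3l3, Cyp7b1 and Gbe1 moved the same way in 3 of 3 mice. Dusp1, a MAP kinase phosphatase of the immediate early genes, had -0.23 ± 0.08 against GK (adjusted p = 0.163), lower in 3 of 3 mice, and 0.47 ± 0.08 against GK + hP (adjusted p = 0.0209).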
